A study of Mus musculus with 75 samples.

Results

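Loss of Kmt2c was examined here in one adult blood progenitor population, labelled pGM (pre-granulocyte-monocyte progenitor), by comparing the 4 RNA-seq libraries labelled knockout (ko) with the 4 labelled wild type (wt). These 8 libraries are among 75 in the series and were chosen by their labels alone. All came from untreated 8-week-old mice, as total RNA from a Qiagen micro kit and a Clontech low-input kit. The ko genotype was Kmt2c f/f with Vav-Cre, a Cre driver active in blood-forming cells. The heterozygous (het) genotype was Kmt2c f/+ with Vav-Cre, with 4 pGM libraries. For wt no Cre was named, so an effect of Cre and an effect of the lost gene cannot be told apart between ko and wt, whereas ko and het both carried Cre. Nothing states that libraries of a group came from separate animals or which exons were floxed, and p-values measure the spread between these libraries, which may be technical. Of the genes in the deposited count table, 12939 held enough reads to be tested.

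Kmt2c encodes MLL3, a histone methyltransferase that places a single methyl group on lysine 4 of histone H3, chiefly at enhancers, within a complex shared in part with its relative Kmt2d. Progenitors of the pGM type lie between multipotent cells and committed granulocyte-monocyte progenitors (GMP). They express early neutrophil and monocyte genes such as Mpo, and low levels of genes of other blood lineages.

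Read depth was similar between genotypes, at 16120971 to 20302730 counted reads per ko library, 13293557 to 17992571 per het library and 14471400 to 17830782 per wt library. The label pGM was checked against markers in wt cells, with levels scaled over the 48 untreated libraries of all populations. Mpo, the granule enzyme of myeloid progenitors, averaged 13849 CPM (counts per 1e6 reads) in wt pGM, between 1568 CPM in the progenitors labelled HPC and 82899 CPM in GMP. Slamf1 and Ly6a, which mark stem cells, were low in wt pGM (1.28 and 29.4 CPM) beside wt HSC (35.8 and 256 CPM), and Fcgr3, which GMP carry, was at 45.2 CPM in pGM and 742 CPM in GMP. Itga2b, the integrin CD41, did not follow this order, at 78.8 CPM in wt pGM and 72.2 CPM in wt HSC. The libraries also differed in ways other than the genotype label. Sex-linked expression was partly confounded with genotype, so an effect of sex and an effect of genotype cannot be fully told apart. Ko replicates 1 and 4 held Xist (160 and 118 CPM) and 0.531 and 0.571 CPM in sum of Y-linked Ddx3y, Eif2s3y, Kdm5d and Uty. The other ko libraries and every het and wt library held 96.7 to 197 CPM of these Y-linked genes, and wt replicates 2 and 3 held Xist too (46.8 and 21.7 CPM). Ko replicate 4 stood apart on the first principal component (-57.4, against -15.8 to -5.90 for the other ko libraries and 14.1 to 31.7 for wt). Results are therefore given also without ko replicate 4, without ko replicates 1 and 4, and with Y-linked expression as a covariate.

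Kmt2c, at 25271798 to 25498783 on the minus strand of chromosome 5 in GRCm38, was lower in ko pGM but not absent. Its level was 14.2, 12.5, 10.1 and 6.28 CPM in the ko libraries, 41, 29.6, 24.5 and 18.6 CPM in the het libraries and 38.6, 33.2, 36.2 and 38.8 CPM in the wt libraries. No ko library reached the lowest het or wt library, and the het libraries spanned the wt range and below it. The log2 fold change, ko over wt, was -1.77 ± 0.24 (SE), with an adjusted p of 0.000426 from edgeR's quasi-likelihood test with Benjamini-Hochberg adjustment. A gene is called here where this adjusted p is under 0.05, and Kmt2c remained called in all 17 alternative analyses, with an adjusted p of at most 0.0127. Reads outside a deleted segment still count toward the gene, so the remaining level does not measure intact transcript. Kmt2d, the closest relative, averaged 162 ± 32.8 CPM in ko and 158 ± 14.4 CPM in wt (SD, n = 4 each). Kmt2c was the one called member of a list of 23 H3K4 methyltransferases, demethylases and partners, all tested. Its list partners Kdm6a (0.57 ± 0.25), Ncoa6, Paxip1 and Wdr5 were not called, and the list's median was 0.05 on the log2 scale, against 0.02 over all genes tested.

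In ko pGM 53 genes rose (0.41% of those tested) and 198 fell (1.53%), 251 in all (1.94%). The genes that fell changed by a median of 2.40-fold and those that rose by 2.04-fold. At 4-fold or more, 51 genes were lower and 8 higher. The ko and wt libraries did not overlap for 244 of the 251 genes, against 805 of all genes tested (6.22%). Without ko replicate 4 the count was 195, of which 170 were among the 251. Without ko replicates 1 and 4 it was 146 (114 shared), and with the Y-linked covariate 128 (107 shared). In each of these analyses all 251 genes kept their direction. These fits reuse the same libraries. Leaving out ko libraries could hardly reverse a gene whose groups do not overlap, so this is no separate support. Without wt replicate 1 the count was 160. Genes named below as not called were picked from the lists once their values were known. In bulk RNA, fewer cells of a kind and less RNA per cell cannot be told apart.

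**Figure D1:**
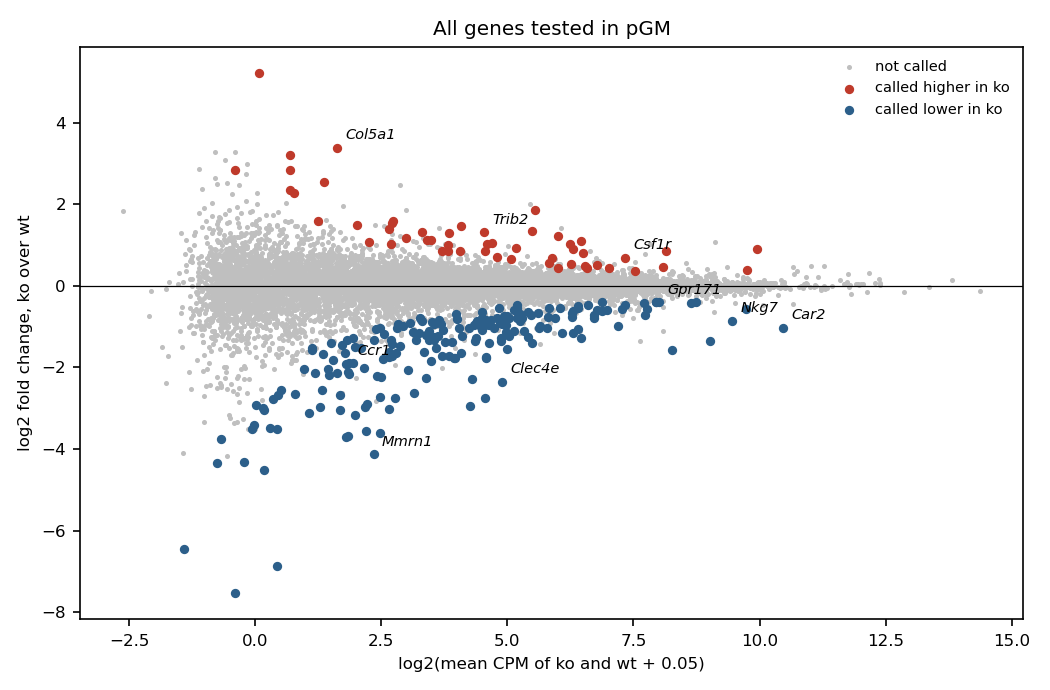
Log2 fold change of ko over wt (vertical axis) against the log2 mean CPM of the ko and wt libraries (horizontal axis, with 0.05 CPM added), for the 12939 genes tested in pGM. Red points are the 53 genes called higher in ko and blue points the 198 called lower; the lower genes lie at every level of expression, from under 1 CPM to Car2, which averaged 932 CPM in ko and 1904 CPM in wt.

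Receptors for interleukin-1 and interleukin-18 fell together in ko pGM against wt. Of those called, Il1r1 alone was also called against het. IL-1 acts on stem and progenitor cells to drive myeloid output, and IL-18 uses a related receptor. Il1r1, the signalling receptor for IL-1, was at 9.39, 8.97, 7.31 and 6.98 CPM in the ko libraries and 34, 24.8, 23.6 and 20.9 CPM in the wt libraries. Every ko library lay below every wt library by more than 2-fold, and the log2 fold change was -1.66 ± 0.20 (adjusted p = 0.000159). Il18rap, the accessory chain of the IL-18 receptor, was at 6.2, 17.9, 13.3 and 5.9 CPM in ko and 45, 33.4, 32.3 and 35.7 CPM in wt. Its groups did not overlap either, with the ko libraries 1 and 4 lowest, and its log2 fold change was -1.75 ± 0.29 (adjusted p = 0.00351). Il18r1, the ligand-binding chain, was at 1.59, 0.783, 0.938 and 0.571 CPM in ko and 3.91, 5.64, 4.02 and 4.3 CPM in wt (-2.19 ± 0.40, adjusted p = 0.00523). The decoy receptor Il1r2 was at 2.18, 1.87, 1.48 and 0.825 CPM in ko and 6.72, 4.59, 4.53 and 8.02 CPM in wt (-1.90 ± 0.44, adjusted p = 0.0313), and its call was lost in 9 of 17 alternatives, including without ko replicate 2, 3 or 4 or wt replicate 1 or 4. Il1r1 and Il18rap were called in all 17. The antisense gene Gm16894, which overlaps Il1r2, held 16 reads over the ko libraries and 28 over the wt libraries and cannot be told apart from it without strand.

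These 4 receptors lie on one strand within 477.6 kb of mouse chromosome 1, from 40074079 to 40551705 in the GRCm38 build (GENCODE M21). A pair of related receptors sits between them and did not pass the test. Il1rl2, the receptor for IL-36, was at 9.33, 5.9, 4.64 and 7.93 CPM in ko and 8.98, 7.27, 15.6 and 3.85 CPM in wt (-0.37 ± 0.45, adjusted p = 0.954). Il1rl1, the receptor for IL-33, was at 11, 5.24, 6.62 and 6.28 CPM in ko and 8.78, 9.18, 8.89 and 6.74 CPM in wt (-0.21 ± 0.27, adjusted p = 0.961). For both the ko and wt libraries overlapped. Il1rap, the chain that IL-1 and IL-33 receptors share and whose gene lies elsewhere, was at 16.6 ± 1.6 CPM in ko and 17.9 ± 3.02 CPM in wt and was not called (-0.10 ± 0.16). The difference between called and uncalled receptors was not itself tested. Il1rl2 and Il1rl1 were singled out for their position once their values were known. Over all 40 cytokine and growth factor receptors tested, these 4 fell, Csf1r rose, and the median log2 fold change was 0.03. The receptors Kit, Csf3r and Csf2rb were not called.

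**Figure D2:**
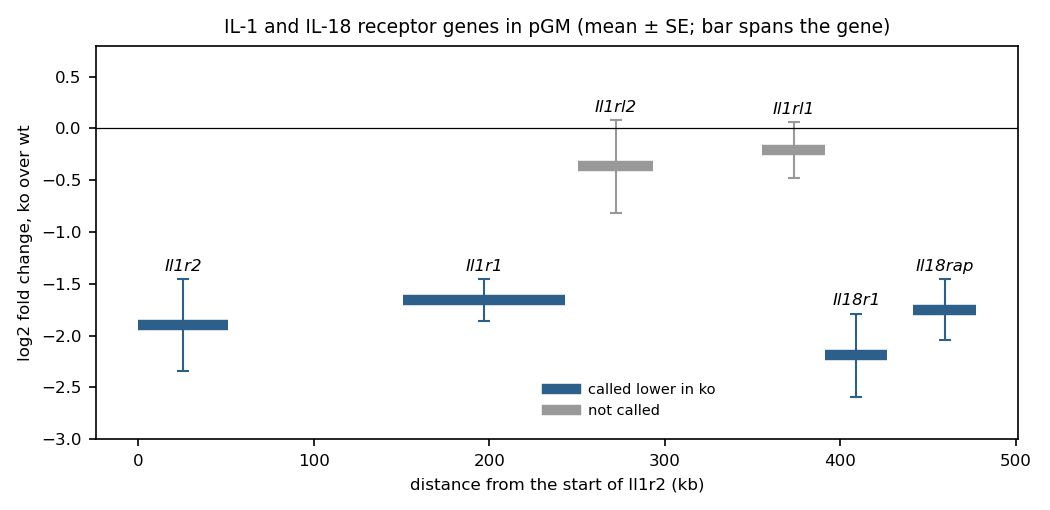
Log2 fold change of ko over wt (vertical axis, whiskers are ± SE) for the 6 receptor genes tested in the cluster, drawn at their distance in kb from the start of Il1r2. Il1r2, Il1r1, Il18r1 and Il18rap were called lower (-1.90, -1.66, -2.19 and -1.75), while Il1rl2 and Il1rl1 between them were not called (-0.37 and -0.21).

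Of 39 G-protein-coupled receptors tested, 11 fell in ko pGM (28.2%, against 1.53% of all genes) and none rose. The list was of receptors for chemokines, lipids and nucleotides, with some for other ligands such as Gpr65. It was chosen with earlier results of these data known, so the share is no separate support. The median log2 fold change of the list was -0.61, and 8 of 39 were above 0. Gpr65, a proton sensor, was at 27.3, 38.4, 29.4 and 34.1 CPM in ko and 62.4, 65.6, 66 and 69.9 CPM in wt. The highest ko library lay below the lowest wt library (-1.03 ± 0.12, adjusted p = 0.000104). P2ry14, the receptor for UDP-glucose, was at 60.2, 64, 59 and 64.3 CPM in ko and 105, 93, 83.5 and 98.5 CPM in wt. The ko values were tightly grouped and all under the wt range, although the change was small (-0.62 ± 0.10, adjusted p = 0.00209). P2ry13, a receptor for ADP, was at 0.531, 2.77, 1.38 and 0.444 CPM in ko and 9.67, 4.77, 4.93 and 3.98 CPM in wt (-2.17 ± 0.46, adjusted p = 0.0165), with wt replicate 1 highest.

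S1pr1, the sphingosine-1-phosphate receptor that guides cells out of tissue, was at 9.33, 3.67, 9.68 and 3.93 CPM in ko and 21.1, 22.7, 23.4 and 21 CPM in wt. Every wt library was more than 2-fold above every ko library, and the log2 fold change was -1.72 ± 0.31 (adjusted p = 0.00501). The prostaglandin E2 receptors Ptger3 (1.24, 0.964, 0.296 and 0.317 CPM in ko and 4.59, 3.84, 3.45 and 4.81 CPM in wt) and Ptger2 (13.8, 13.5, 18.1 and 12.2 CPM in ko and 28.7, 32, 33.6 and 28.9 CPM in wt) both fell without overlap (-2.56 ± 0.44 and -1.09 ± 0.22), whereas Ptger4 was not called (-0.29 ± 0.24). Among chemokine receptors Ccr1 fell (-1.89 ± 0.34, adjusted p = 0.00417), and the counts behind it were low, at 1.89, 0.663, 2.17 and 1.33 CPM in ko and 6.86, 4.24, 4.93 and 6.74 CPM in wt. Ccr9 and P2ry10, a receptor for lysophosphatidylserine, fell, with log2 fold changes of -3.16 and -3.71. Gpr141 (-2.13) and Gpr171 (-0.40) complete the 11. Calls of single receptors were lost without one library for Ccr9 (ko 4), P2ry13 (ko 1, ko 3 or wt 1), Gpr141 (ko 1) and Gpr171 (any one library but ko 3), and those of S1pr1 and Ptger2 were lost with the Y-linked covariate. Cxcr4, Cxcr2, Cx3cr1, S1pr4 and Lpar6, which averaged 30 CPM or more in both groups, were not called. Without ko replicate 4 the list gave 9 called members, without ko replicates 1 and 4 it gave 6 of 42 tested, and with the Y-linked covariate 6 of 39, all lower.

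Of 27 innate sensors and inflammasome genes tested, Clec4e and Cd180 fell and Mefv rose. Clec4e, which encodes the C-type lectin Mincle, had the smallest p of all named genes. It was at 9.45, 11, 11.2 and 7.11 CPM in ko and 50.3, 52.2, 45.8 and 49.7 CPM in wt, groups that lay more than 4-fold apart at their nearest libraries (-2.35 ± 0.15, adjusted p = 1.38e-07). Cd180, a relative of TLR4 that lacks a signalling tail, was at 3.13, 2.65, 2.47 and 1.46 CPM in ko and 17, 18.1, 16 and 9.5 CPM in wt (-2.63 ± 0.26, adjusted p = 3.72e-05). Mefv, which encodes the inflammasome protein pyrin, rose (1.53 ± 0.34, adjusted p = 0.0246), and its call was lost in 9 of 17 alternatives. Tlr2, Tlr4, Casp1, Pycard and Myd88 were among the members not called, and the list's median was -0.13. Tnip3, an inhibitor of NF-kappaB signalling, was at 1.95, 2.47, 1.83 and 0.762 CPM in ko and 11.2, 17.3, 10.2 and 8.41 CPM in wt (-2.74 ± 0.40, adjusted p = 0.000932). Il17re, a receptor chain for IL-17C, was at 2.78, 6.99, 3.51 and 1.14 CPM in ko and 22.1, 15.8, 19 and 12.2 CPM in wt (-2.26 ± 0.39, adjusted p = 0.00492). The rule that named Il17re required groups without overlap.

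Several regulators fell as clearly. Cd96, a receptor of T and NK cells also found on progenitors, was at 6.55, 3.85, 3.56 and 3.55 CPM in ko and 39.5, 29.4, 35.2 and 31.5 CPM in wt, with ko replicate 1 above the others (-2.95 ± 0.22, adjusted p = 6.88e-07). Eya2, a transcriptional coactivator and phosphatase, was at 4.13, 10.4, 5.88 and 3.81 CPM in ko and 42.4, 47.3, 30.1 and 43.2 CPM in wt (-2.75 ± 0.29, adjusted p = 9.29e-05). Tox, a nuclear factor of lymphocyte development, was at 5.26, 7.59, 9.88 and 3.55 CPM in ko and 42.6, 38.1, 20.9 and 28.2 CPM in wt (-2.30 ± 0.29, adjusted p = 0.000238). For all 3 the lowest wt library was at least 2-fold above the highest ko library. Mta3, a subunit of the NuRD repressor complex, was at 107, 105, 113 and 68.3 CPM in ko and 208, 175, 197 and 201 CPM in wt (-0.99 ± 0.13, adjusted p = 0.000238). Dtnbp1, a subunit of the lysosome-biogenesis complex BLOC-1, was at 39.6, 40.5, 38.9 and 48.7 CPM in ko and 94.1, 90.5, 89 and 97.9 CPM in wt (-1.15 ± 0.11, adjusted p = 4.01e-05). In Mta3 the library ko 4 was lowest, and in Dtnbp1 it was highest. Cytip, a regulator of integrin adhesion, Tspan6 and the guanylate cyclase subunit Gucy1a1 fell with log2 fold changes of -0.98, -1.11 and -2.22. These 8 genes were called in all 17 alternatives.

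**Figure D3:**
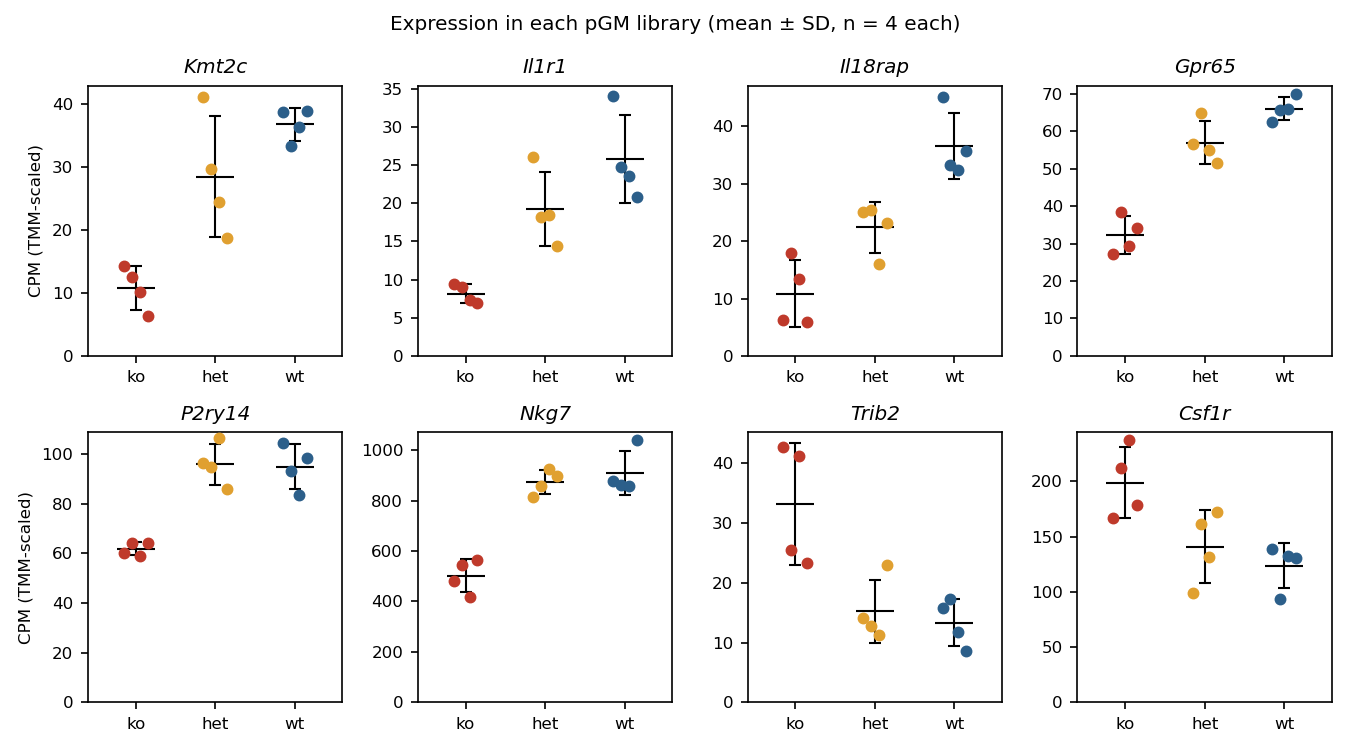
CPM (vertical axis, from 0) of 8 genes in each ko, het and wt pGM library; points are libraries, the dash and whiskers are mean ± SD, n = 4 each. Kmt2c, Il1r1, Il18rap, Gpr65, P2ry14 and Nkg7 are lower in all 4 ko libraries than in any wt library and Trib2 and Csf1r higher; P2ry14 and Nkg7 in het overlap wt.

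Genes of other blood lineages are set beside all genes tested, of which 1.94% were called. The shares called were 17.9% of mast cell, basophil and eosinophil genes and 30% of megakaryocyte and platelet genes. They were 11.1% of erythroid genes, 20% of T and NK cell genes, 9.09% of lymphoid genes and 0% of B cell and plasma cell genes. The lists were chosen with earlier results of these data known. Of 28 mast cell, basophil and eosinophil genes tested, 5 fell and none rose, with a median of -0.07. Without ko replicate 4, 4 fell and 1 rose (median -0.13), without ko replicates 1 and 4, 4 fell (median -0.81), and with the Y-linked covariate 4 fell (median -0.77). The basophil proteases Prss34 and Mcpt8 and the adaptor Clnk were among the 5, but the call of Prss34 was lost in 13 of 17 alternatives, that of Mcpt8 in 10, and that of Clnk without ko replicates 1 and 4. Alox5, the leukotriene-forming 5-lipoxygenase, was at 10.5, 14, 15.5 and 14.3 CPM in ko and 35.5, 38.3, 34.2 and 36.3 CPM in wt (-1.41 ± 0.17, adjusted p = 0.000134), and the mast cell protease Cpa3 was at 159.5, 187, 178 and 96.6 CPM in ko and 482, 450.3, 382 and 536 CPM in wt (-1.57 ± 0.16). The groups were well separated for both, with ko replicate 4 lowest for Cpa3. The call of Alox5 was lost in edgeR's fit of all 48 untreated libraries (adjusted p = 0.904). The histidine decarboxylase Hdc, the IgE receptor chain Ms4a2 and the amine transporter Slc18a2 were not called (-0.02 ± 0.15, 0.05 ± 0.14 and -0.09 ± 0.20), and the eosinophil granule gene Prg2, at 109, 1.39, 2.22 and 275 CPM in ko and 38.3, 12, 8.49 and 86.8 CPM in wt, was not called either, and its 2 highest libraries of the 8 were ko replicates 4 and 1.

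Of 20 megakaryocyte and platelet genes tested, Cd9, Itga2b, Itgb3, Mmrn1 and Plek fell and Selp rose (median -0.28). Selp, the adhesion receptor P-selectin, was at 58.3, 81.6, 56.4 and 60.9 CPM in ko and 19.2, 33.8, 24.1 and 23.7 CPM in wt (1.35 ± 0.22, adjusted p = 0.0019), and Itga2b at 63.7, 52.1, 38.7 and 24.5 CPM in ko and 80.5, 78.8, 78.1 and 74.7 CPM in wt (-0.80 ± 0.20, adjusted p = 0.0452). The changes were opposite within one list, and the call of Itga2b was lost without ko replicate 2 or 3 or any one wt library. The call of Plek was lost in 7 of 17 alternatives and that of Cd9 in 5, and Itgb3 was lost without ko replicates 1 and 4 and with the Y-linked covariate. In both of those fits 2 members of the list fell and 1 rose, and without ko replicate 4 the median was -0.13. Pf4, a platelet chemokine, was not called (-0.15 ± 0.28). Of 27 erythroid genes, Gata1 rose (0.80 ± 0.16), Car2 and Hemgn fell, and the median was 0.39. Hemgn was lost without ko replicates 1 and 4 (median 0.22) and with the Y-linked covariate (median 0.29), and Gata1 in the fit of all 48 untreated libraries. Klf1, Epor and Car1 were not called, and the summed globin genes were at 9.04 to 95.1 CPM in ko libraries and 20.7 to 92.3 CPM in wt libraries.

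The T and NK cell list had a median of -0.69 over 20 members tested, with 3 above 0. Nkg7, a granule protein, fell to 481, 543, 419 and 562 CPM in ko, against 877, 863, 856 and 1038 CPM in wt (-0.86 ± 0.10, adjusted p = 9.79e-05). Nkg7 also belongs to the granulocyte and monocyte list and averaged 501 CPM in ko and 909 CPM in wt. The kinase Lck and Cd7 fell too, and Cd4 rose; the call of Cd7 was lost in 14 of 17 alternatives and that of Cd4 in 10. With the Y-linked covariate 2 members fell and none rose. Lat (-1.09 ± 0.27, adjusted p = 0.0516) and Il2rg (-0.65 ± 0.16, adjusted p = 0.0516), the adaptor and the shared cytokine receptor chain, were just outside the threshold. The summed list was at 1080 to 1361 CPM in ko and 1688 to 1909 CPM in wt, without overlap. Nkg7 alone made up much of these sums and of the gap between them, so the sum does not show a loss across the list. The defining T cell genes Cd3e and Cd8a averaged 0.169 and 0.111 CPM in ko and were at 0 in every wt library. Of genes of macrophages, another cell type that a sample can hold, 0 of 12 tested members were called. Their median was -0.93, with none above 0, and their sum was 52.0 to 101 CPM in ko and 97.6 to 120.5 CPM in wt, ranges that overlap. Without ko replicates 1 and 4 the median was -1.33, again with 0 called, and DESeq2 called 1 lower. Their part in the other changes was not tested. In the lymphoid list Dntt, Ccr9 and Gata3 fell among 33 tested (median -0.20), and Flt3, Il7r, Ebf1 and Satb1 were not called. Ccr9 and Gata3 were lost without ko replicates 1 and 4 (2 members lower, median -0.33) and with the Y-linked covariate (1 lower, median -0.34), and Ccr9 also without ko replicate 4, where the median was 0.00. Of 12 B cell and plasma cell genes none was called (median -0.53); without ko replicate 4, 1 was called lower and the median was -0.17, and DESeq2 called 1. Of 6 stroma and endothelium genes none was called (median -0.28, and -0.09 without ko replicate 4).

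The genes that rose were fewer and smaller in change. Asns, which makes asparagine and is a target of the amino acid stress response, was at 83.5, 105, 107 and 112 CPM in ko and 49, 59, 52 and 41.3 CPM in wt (1.02 ± 0.15, adjusted p = 0.000865). It was the one called member of 24 genes of the unfolded protein and integrated stress response tested, and Atf4, Ddit3, Psat1 and Phgdh were not called (0.08 ± 0.13, 0.42 ± 0.18, -0.06 ± 0.09 and -0.02 ± 0.08). Mt1, a metal-binding metallothionein, was at 109.6, 124, 112 and 133 CPM in ko and 45.4, 62.9, 52.9 and 63.4 CPM in wt (1.09 ± 0.17, adjusted p = 0.0015). In both genes every ko library exceeded every wt library, which the rule for the largest changes, met by both, required. Lgals1, the lectin galectin-1, was at 1025, 1162, 1231 and 1718 CPM in ko and 611, 548, 749.5 and 833 CPM in wt (0.91 ± 0.17), with ko replicate 4 highest, and was lost with the Y-linked covariate. Maged1 and the aspartate aminotransferase Got1 rose by 0.91 and 0.48 on the log2 scale, and the call of Got1 was lost in 6 of 17 alternatives. Ces2g, a carboxylesterase, was at 59.6, 72, 108 and 52.4 CPM in ko and 18.4, 29.5, 14.4 and 18.2 CPM in wt (1.86 ± 0.29, adjusted p = 0.00368).

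Of 38 granulocyte and monocyte genes, Csf1r, Cd68 and Tifab rose and Nkg7 fell, with a median of 0.13. Csf1r, the M-CSF receptor, was at 167, 212, 237 and 179 CPM in ko and 139, 93.2, 132 and 130.3 CPM in wt (0.68 ± 0.16, adjusted p = 0.0406). The groups did not overlap, but the call was lost without ko replicate 2, 3 or 4 or any one wt library. Tifab, a regulator of TRAF6 signalling, was at 333, 340.2, 386 and 392 CPM in ko and 195, 158, 242 and 209 CPM in wt (0.85 ± 0.18, adjusted p = 0.0181). The call of Cd68 was lost in 11 of 17 alternatives, and without ko replicate 4 none of the 38 rose. The principal granule and lineage genes Mpo, Elane, Cebpa and Irf8 were not called (0.14 ± 0.14, -0.01 ± 0.42, 0.25 ± 0.16 and 0.57 ± 0.20). Col5a1, a collagen chain, was at 3.37, 5.72, 4.94 and 8.12 CPM in ko and 0.48, 0.581, 0.396 and 0.642 CPM in wt, the largest rise among the genes of 5 CPM or more (3.38 ± 0.44, adjusted p = 0.000295). Ecm1 rose with it and Col4a2 fell among 26 matrix genes tested, the call of Col4a2 being lost in 12 of 17 alternatives. Trib2, a pseudokinase that promotes loss of C/EBPalpha protein, was at 42.7, 25.5, 41.2 and 23.3 CPM in ko and 15.8, 17.3, 11.8 and 8.53 CPM in wt (1.31 ± 0.27, adjusted p = 0.0133); the call was lost without ko replicate 3 and with the Y-linked covariate.

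No member was called in 8 further lists: mitosis (30 genes, median -0.13), DNA replication (32, -0.08), ribosome biogenesis and MYC targets (27, -0.01), cholesterol synthesis (22, 0.05), oxidative phosphorylation (26, 0.05), immediate early genes (15, -0.10), Hox and self-renewal factors (19, 0.14) and, as above, macrophage genes. Without ko replicates 1 and 4, and also with the Y-linked covariate, 1 mitosis gene (medians -0.26 and -0.24) and 1 immediate early gene (-0.22 and -0.24) were called lower and 1 cholesterol synthesis gene (0.15 and 0.13) higher. The immediate early list had 1 lower without ko replicate 4 too. With all libraries, genes above 0 numbered 5 of 30 for mitosis and 4 of 32 for DNA replication. They numbered 10 of 27 for ribosome biogenesis, 5 of 15 for immediate early genes and 16 of 22 for cholesterol synthesis. For oxidative phosphorylation and Hox factors they numbered 19 of 26 and 15 of 19, and for all genes tested 6922 of 12939. Of 29 stem cell genes tested, Cdkn1c and Fhl1 fell (median -0.35), both at under 4 CPM in every ko and wt library, and the call of Fhl1 was lost without any one library but ko 1. That of Cdkn1c was lost without ko replicate 3, without ko replicates 1 and 4 and with the Y-linked covariate. Of the stem cell genes, none fell and 1 rose without ko replicates 1 and 4 (median -0.04), and none was called with the covariate (median -0.18). The adhesion list had Itga9, Itga2b, Itgb3, Itgal and Cd244a lower and Selp higher among 35 tested; without ko replicates 1 and 4, 2 fell, and with the Y-linked covariate 0. Among interferon-stimulated genes Ifi47 and Rtp4 fell among 29 tested, with calls lost in 10 and 8 of 17 alternatives. In the MHC class II list H2-Ob fell and Ifi30 rose among 12 tested, with calls lost in 10 and 9 of 17 alternatives and no member called without ko replicate 4, without ko replicates 1 and 4 or with the covariate. The summed list was at 973 to 1524 CPM in ko and 1228 to 1847 CPM in wt.

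The position of the changed genes along the lineage was described with lists made from wt libraries of the other populations only. In wt, 7453 genes (54.9% of those tested) differed between GMP and HPC and 3882 (28.6%) between HSC and HPC. Of the 200 genes with the largest fold in favour of HPC over GMP, 198 were tested in pGM, 41 fell in ko and none rose, and their median log2 fold change was -0.71. Of the 200 genes higher in GMP than HPC, 190 were tested, 6 rose, 9 fell, and the median was 0.10. Without ko replicates 1 and 4, 2 rose and 6 fell (median 0.01), and with the Y-linked covariate 2 rose and 5 fell (median 0.04). The HPC-over-GMP list held Dntt, Eya2, Gata3 and Tox among the genes that fell. Of genes higher in HPC than HSC, 42 fell and 3 rose of 198 tested (median -0.34), and of genes higher in HSC than HPC, 7 fell and 4 rose of 136 tested (median -0.12), against 3 fallen and 3 risen with the Y-linked covariate. Without ko replicates 1 and 4, 24 of 199 genes of the HPC-over-GMP list fell (median -0.58), and with the Y-linked covariate 20 of 198 (median -0.63). The genes lower in ko of the HPC-over-HSC list then numbered 26 and 21. The sum of the HPC-over-GMP list was 2588 to 4371 CPM in ko and 5138 to 7419 CPM in wt, without overlap. Its members Car2 (means of 932 CPM in ko and 1904 CPM in wt) and Dntt (288 and 741 CPM) made up much of that gap. The sum alone therefore does not show a loss across the list. With all libraries, the shares called were 20.7% of the HPC-over-GMP list and 7.89% of the GMP-over-HPC list. They were 22.7% of the HPC-over-HSC list and 8.09% of the HSC-over-HPC list. Each share exceeded the 1.94% of all genes tested, whose median log2 fold change was 0.02.

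**Figure D4:**
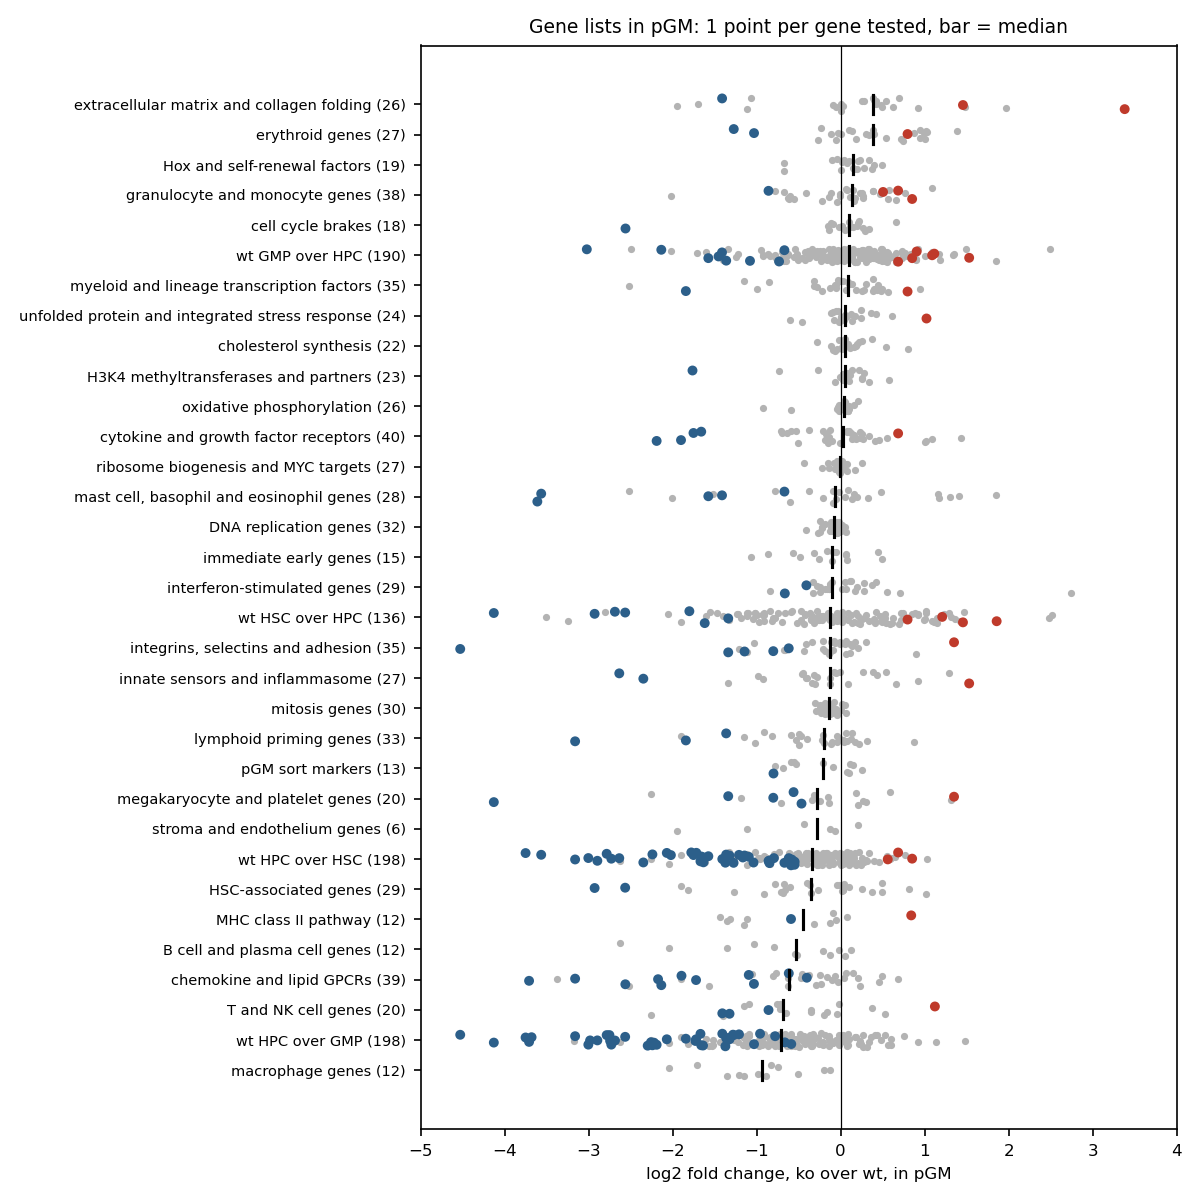
Log2 fold change of ko over wt in pGM (horizontal axis) for each gene list, ordered by median; points are genes tested (number in brackets), red called higher, blue called lower, grey not called, and the black bar is the median. The HPC-over-GMP list, the T and NK list and the receptor list of chemokine and lipid GPCRs have medians of -0.71, -0.69 and -0.61, and the macrophage list has the lowest median (-0.93) with no gene called.

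Loss of one copy was examined in the het libraries. Between ko and het, which both carry Cre, 73 genes were called (0.564% of those tested), 13 higher and 60 lower in ko. Every het library held Y-linked reads (169 to 197 CPM), and ko replicates 1 and 4 held almost none. Sex and genotype are therefore partly confounded in this contrast too. Its count was not repeated without ko replicates 1 and 4 or with the Y-linked covariate. Between het and wt 2 were called (0.0155%), Sva and Slc39a1, both named once their values were known, with 951 genes under an unadjusted p of 0.05; DESeq2 called 51. These comparisons share libraries with ko against wt, so the values are set side by side. Il1r1 was at 26, 18.2, 18.5 and 14.5 CPM in het, above every ko library, with log2 fold changes of -1.24 for ko over het (adjusted p = 0.0061) and -0.42 for het over wt (adjusted p = 0.674). Clec4e was at 38.5, 33.4, 35.9 and 30.4 CPM in het (-1.83 for ko over het, adjusted p = 6.30e-06, and -0.52 for het over wt). Cd96 was at 22.7, 19.2, 14.4 and 19.8 CPM in het (-2.12 and -0.83), between the ko and wt libraries without overlap.

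P2ry14 and Nkg7 in het overlapped the wt libraries. P2ry14 was at 96.2, 94.9, 106 and 86.1 CPM in het (-0.63 for ko over het, adjusted p = 0.00444, and 0.01 for het over wt), and Nkg7 at 814, 857, 923 and 898 CPM (-0.80, adjusted p = 0.00118, and -0.06). Cpa3 and Eya2 gave -1.28 and -2.25 for ko over het, both called, and -0.29 and -0.51 for het over wt, neither called. Tslp, a cytokine gene on chromosome 18, was at 9.92, 6.69, 7.46 and 10.4 CPM in ko, 3.92, 4.61, 3.32 and 4.51 CPM in het and 4.32, 4.36, 4.53 and 3.66 CPM in wt, with calls for ko over wt (lost in 7 of 17 alternatives) and for ko over het (1.07, adjusted p = 0.0352) but not for het over wt (-0.04). Itga2b, Il18r1, Il18rap and Il1r2 were called for ko over wt but not for ko over het (-0.32, -0.95, -1.04 and -0.96). Of the IL-1 and IL-18 receptors called for ko over wt, Il1r1 alone was thus called between the groups that both carry Cre. Of the genes higher in ko, Asns and Mt1 in het were at 65.8, 47.1, 68.8 and 77.1 CPM and 52.4, 78.1, 69.5 and 107 CPM, and neither was called for ko over het (0.66 and 0.64).

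Sva, on chromosome 6, was at 2.48, 2.77, 1.14 and 1.52 CPM in ko and 1.6, 2.55, 1.24 and 3.08 CPM in het, whereas the wt libraries held 3 reads in all, in one library. Across HSC, HPC and GMP the ko and het libraries each held 15 to 49 reads of Sva, and the 12 wt libraries held 1. The gene was called higher for ko over wt and for het over wt, and ko and het, the genotypes with Cre, did not differ by the test (-0.10 for ko over het, adjusted p = 0.987). Sva was singled out once its values were known.

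The same contrast was examined in the untreated ko and wt libraries of HSC, HPC and GMP, 4 each, which share no library with pGM. Nothing states whether the populations came from the same animals, so shared calls may not be independent. Sex-linked expression was examined here in the pGM libraries alone. There 246 genes were called in HSC (1.78%), 146 in HPC (1.1%) and 67 in GMP (0.555%). Of the 198 genes lower in pGM, 64 were lower in HPC too (32.3% of the pGM genes and 56.6% of the HPC genes), 54 in HSC (27.3% and 32.3%) and 19 in GMP (9.60% and 44.2%). Of the 53 higher genes, 13 were higher in HPC, 6 in HSC and 4 in GMP. The genes called in the same direction in all 4 populations were Cd96, Gpr65, Kmt2c, Sva, Tmem273 and Tspan2. Cd96 changed by -2.95 in pGM, -3.01 in HSC, -2.70 in HPC and -2.79 in GMP on the log2 scale, and Gpr65 by -1.03, -2.05, -0.97 and -1.03 in the same order. Tmem273 and the tetraspanin Tspan2, picked once their values were known, were at 2.3, 2.17, 3.16 and 3.81 CPM and 17.7, 16.7, 16.1 and 17.4 CPM in ko pGM, against 7.13, 9.42, 10 and 11.7 CPM and 40.8, 25.6, 29.3 and 26.6 CPM in wt pGM. Il18rap fell in HSC (-3.12, adjusted p = 7.74e-05) and GMP (-2.73, adjusted p = 0.00271), and Il1r1 in HSC (-1.75) and HPC (-0.83). Asns rose in HSC (1.01) and HPC (1.13).

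Whether an effect differed between populations was tested as an interaction over all 48 untreated libraries, which the fit took as independent. Against HSC 33 genes differed (0.218% of those tested), against HPC 1 (0.00662%) and against GMP 14 (0.0927%). DESeq2 gave 54, 7 and 59. Trib2 was the one gene whose effect differed from HPC: it rose in pGM but fell in HPC (3.22 ± 0.586 CPM in ko and 9.13 ± 2.63 CPM in wt, n = 4 each) and in HSC (11.7 ± 2.38 CPM in ko and 25.6 ± 3.8 CPM in wt). The difference in log2 fold change was 2.81 ± 0.45 (adjusted p = 0.00262) for pGM minus HPC and 2.43 ± 0.44 (adjusted p = 0.00257) for pGM minus HSC. Tox fell in pGM and was not called in HSC, where it was at 131 ± 19.9 CPM in ko and 107 ± 19.8 CPM in wt (difference -2.59 ± 0.32, adjusted p = 3.61e-06). Car2 was also lower in pGM and not called in HSC (difference -1.29 ± 0.23, adjusted p = 0.00138), and the adaptor Fyb, picked in the same way, fell less in pGM (-1.25) than in HSC (-3.04, difference 1.77 ± 0.28, adjusted p = 0.000254). Against GMP, Lck (-1.91 ± 0.31) and Rtp4 (-1.91 ± 0.34) differed, both lower in ko pGM and, at 0.50 and 1.24, not called in GMP.

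**Figure D5:**
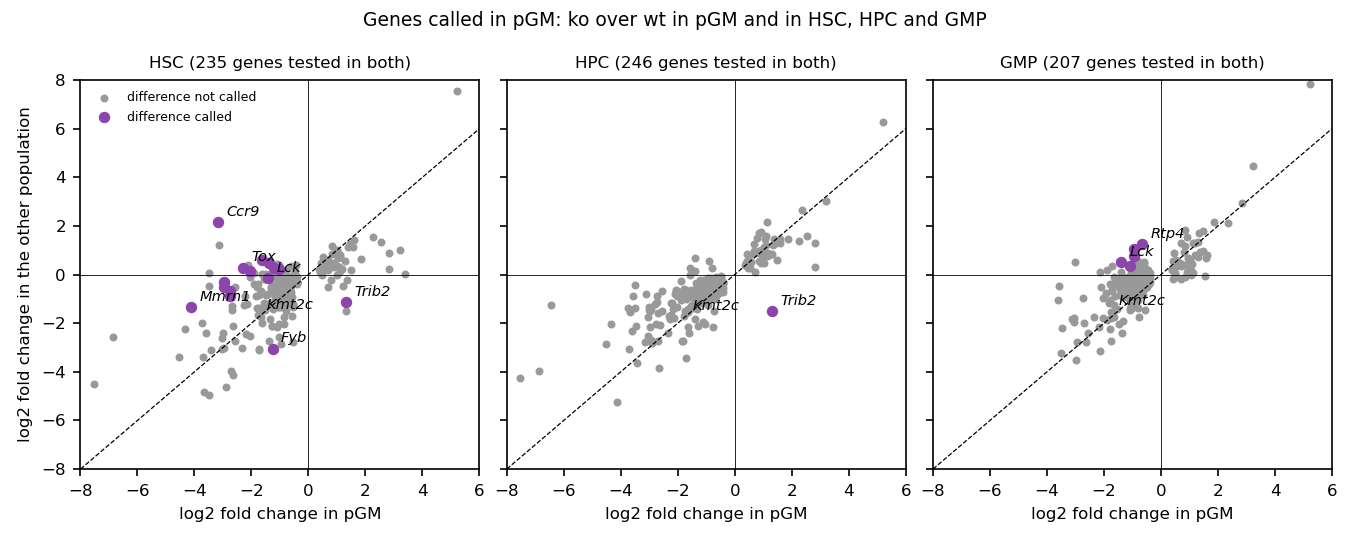
Log2 fold change of ko over wt in pGM (horizontal axes) and in HSC, HPC or GMP (vertical axes) for the genes called in pGM that were tested in both; purple points are genes whose effect differs between the populations, and the dashed line marks equal effects. Trib2 is the one purple point against HPC, higher in pGM (1.31) and lower in HPC (-1.50); against HSC the purple points include Ccr9, Tox, Mmrn1 and Fyb.

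Some changed genes were neighbours. In 13 pairs both genes were called and no other tested gene lay between them, 25 genes in all, and in all 13 pairs both genes fell. Of all 251 genes called, 198 were lower, so most pairs would be lower whatever their position. The number of such pairs among genes placed at random was not tested. Besides Il1r2 with Il1r1 and Il18r1 with Il18rap, a run of 3 purinergic-type receptor genes on chromosome 3 was lower: Gpr171, P2ry14 and P2ry13, within 114 kb (59096448 to 59210882, all on the minus strand). Car3 and Car2, both carbonic anhydrase genes, lie within 37.3 kb of the same chromosome (14863512 to 14900770). Car2 was at 951, 1071, 911 and 797 CPM in ko and 1929, 2351, 1472 and 1863 CPM in wt (-1.03 ± 0.13), and Car3 at 16.8, 15.6, 14.9 and 12.6 CPM in ko and 24.3, 32.2, 27.1 and 25.8 CPM in wt (-0.87 ± 0.16, adjusted p = 0.00431). Neither pair of groups overlapped. Siglecg beside Nkg7, Myl4 beside Itgb3, Etv5 beside Dgkg and Ctla2b beside Ctla2a were other such pairs. Genes of one family share sequence, and reads of such relatives and of overlapping genes can be split by the counting, so the levels of Ctla2a and Ctla2b are uncertain. Within 10 Mb of Kmt2c on chromosome 5, 3 of 128 other genes tested were called (2.34%): Actr3b higher and Fgl2 and Prkag2 lower. Car3, Actr3b, Fgl2, Prkag2 and the partners Siglecg, Myl4, Etv5, Dgkg, Ctla2a and Ctla2b lie outside the rule for named genes and were picked once their values were known.

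A few genes were at or near 0 reads in ko. Lypd6b had 0 reads over the 4 ko libraries and 89 over the wt libraries (1.92, 0.523, 1.19 and 1.99 CPM), at least 32.6-fold lower when the ko group is set at a floor of 3 reads in all. Pcdh7, a protocadherin, had 1 read in ko and 166 in wt (3.29, 3.55, 1.7 and 1.73 CPM, adjusted p = 9.29e-05). Myog, a muscle transcription factor gene, had 0 reads in ko and 43 in wt, at least 15.2-fold lower by the same floor. All 3 were present in het, Lypd6b at 0.725, 0.996, 1.17 and 0.286 CPM and Pcdh7 at 1.45, 0.56, 1.04 and 1.03 CPM. They were picked once their values were known, and the floors cover counting error only.

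Promoters of the called genes were described from RefSeq sequence, 250 bases before to 50 after the start in GRCm38.p6, for the 151 of 198 lower genes, 40 of 53 higher genes and 9662 of all 12939 tested genes with an entry. The observed over expected frequency of the dinucleotide CG had a median of 0.37 in lower genes, 0.56 in higher genes and 0.77 in all tested genes. It was under 0.5 in 62.3% of lower genes, 42.5% of higher genes and 20.2% of all. Put the other way, 94 of 1952 genes with such promoters fell (4.82%) and 17 rose (0.871%), and 57 of 7710 genes with richer promoters fell (0.739%) and 23 rose (0.298%). The hexamers AGATAA or TGATAA, which GATA factors can bind, stood on either strand in 34 of 151 lower genes (22.5%), 5 of 40 higher genes (12.5%) and 981 of all 9662 (10.2%). These are descriptions of letters, with no test, and say nothing of binding. The promoters of the largest changes among genes of 5 CPM or more show the range of CG content: Mmrn1, which encodes the platelet protein multimerin 1 and fell the most, and P2ry10 hold 3 CG each, Ces2g holds 4 and Col5a1 holds 34. Bases are in lower case, with the hexamers in capitals, 1 each in Mmrn1 and P2ry10, 2 in Ces2g and none in Col5a1. The RefSeq start shown for Mmrn1 is 19341 bases from the GENCODE gene start.
Mmrn1 (chr6:60944067-60944366, plus strand): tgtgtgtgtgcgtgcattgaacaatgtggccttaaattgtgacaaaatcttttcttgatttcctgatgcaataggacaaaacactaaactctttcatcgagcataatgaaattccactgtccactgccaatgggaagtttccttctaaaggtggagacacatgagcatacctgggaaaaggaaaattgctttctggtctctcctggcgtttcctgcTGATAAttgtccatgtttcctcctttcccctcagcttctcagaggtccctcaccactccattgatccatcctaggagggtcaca
P2ry10 (chrX:107088242-107088541, plus strand): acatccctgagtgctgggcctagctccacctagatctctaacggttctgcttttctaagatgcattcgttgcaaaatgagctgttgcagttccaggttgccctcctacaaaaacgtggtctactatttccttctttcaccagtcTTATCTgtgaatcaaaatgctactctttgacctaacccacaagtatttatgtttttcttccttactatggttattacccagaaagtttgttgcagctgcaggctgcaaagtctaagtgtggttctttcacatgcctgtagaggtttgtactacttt
Ces2g (chr8:104961468-104961767, plus strand): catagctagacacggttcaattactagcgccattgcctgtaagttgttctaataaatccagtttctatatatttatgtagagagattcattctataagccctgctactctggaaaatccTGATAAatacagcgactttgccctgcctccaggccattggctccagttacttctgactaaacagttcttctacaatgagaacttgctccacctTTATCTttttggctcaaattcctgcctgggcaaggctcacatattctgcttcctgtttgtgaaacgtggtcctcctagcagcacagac
Col5a1 (chr2:27886175-27886474, plus strand): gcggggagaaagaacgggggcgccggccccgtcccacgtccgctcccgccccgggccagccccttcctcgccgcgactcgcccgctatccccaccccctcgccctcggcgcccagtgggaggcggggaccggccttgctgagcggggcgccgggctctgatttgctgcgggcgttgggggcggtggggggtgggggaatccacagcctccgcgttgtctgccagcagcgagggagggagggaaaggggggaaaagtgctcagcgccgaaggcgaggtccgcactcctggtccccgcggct
Mmrn1 was at 0.886, 0.482, 0.642 and 0.127 CPM in ko and 7.75, 14.8, 6.4 and 9.3 CPM in wt (-4.13 ± 0.47, adjusted p = 9.29e-05), with het between at 5.73, 2.24, 2.15 and 2.28 CPM. P2ry10 was at 0.295, 0.904, 0.691 and 0 CPM in ko and 6.99, 7.44, 3.79 and 7.25 CPM in wt (-3.71 ± 0.56, adjusted p = 0.00124). Neither gene's groups overlapped, which the rule for the largest changes required of them. Both were called in all 17 alternatives.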

How the data were processed

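RNA-seq libraries of pGM cells were compared by genotype. Gene counts were deposited by the authors as raw read counts, made with STAR and Subread featureCounts 1.4.5 per the submitters' processing notes. Neither build nor strand setting is stated in the labels, so levels of overlapping and antisense genes are uncertain. Coordinates came from GENCODE M21 by gene ID (40340 of 41388 mouse IDs matched), and promoters from RefSeq, GRCm38.p6. The 3 entries that are not mouse genes were left out of library sizes and tests.

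Counts were tested with edgeR 4.0.16 (R 4.3.3): TMM scaling, filterByExpr (minimum count 10, minimum total 15) and the robust quasi-likelihood test on 12 pGM libraries, with Benjamini-Hochberg adjustment over all genes tested. The SE is the absolute log2 fold change divided by the square root of F. Effects were compared between populations in 1 fit of 48 untreated libraries. DESeq2 1.42.0 and limma 3.58.1 served as alternatives, and the code was tested on simulated data. CPM are TMM-scaled.

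Named genes were Kmt2c, the 20 largest called changes per direction at 5 CPM or more without overlap, the 10 smallest p per direction at 50 CPM or more, and called list members, 90 in all; some results are not reported here. The members and lists were chosen with earlier results of these data known.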

Additional observations from a re-analysis of the deposited data

Results flagged for a closer look

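Of 178 groups of 4 libraries checked, 10 held a library far from the rest, where chance gives about 1 in 20. The value given is the gap to the nearest library as a share of the group's range. Among ko libraries, the highest stood apart for Cd96 (replicate 1, 0.900), Dtnbp1 (replicate 4, 0.836) and Itga9 (replicate 3, 1.0, the only ko library with reads). Among wt libraries, the highest stood apart for Cdkn1c (replicate 2, 0.878), Nkg7 (replicate 4, 0.887), P2ry13 (replicate 1, 0.833), Tnfaip2 (replicate 3, 0.903) and Tspan6 (replicate 2, 0.900). The lowest wt library stood apart for Itgb3 (replicate 2, 0.848) and P2ry10 (replicate 3, 0.878).

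The ko effect of 8 of the named genes reported here differed between pGM and HSC by edgeR's interaction test at an adjusted p under 0.05, given as the log2 difference, pGM minus HSC. It was -1.29 for Car2, -5.35 for Ccr9, -1.89 for Eya2, -1.26 for Lck, -2.79 for Mmrn1, -2.09 for Tnip3, -2.59 for Tox and 2.43 for Trib2. Ccr9 changed by -3.16 in pGM and 2.15 in HSC. In HSC it was near the floor, at a mean of 0.729 CPM in ko and 0.162 CPM in wt. Its change there was not called by edgeR (adjusted p = 0.368). The difference pGM minus GMP was -1.91 for Lck and -1.91 for Rtp4, and pGM minus HPC was 2.81 for Trib2.

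Het replicate 1 held 266 reads on a human gene entry of the table, against 1 to 11 in ko libraries and 1 to 3 in wt libraries. A fusion entry repeated the same counts in each library.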

How the results depend on the processing

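Against 251 genes called, 53 higher and 198 lower, DESeq2 called 411, 110 higher and 301 lower. With the Y-linked covariate the counts were 128, 33 and 95, and without ko replicates 1 and 4 together 146 in all and 106 lower. Leaving out 1 library gave 160 (without wt replicate 1) to 232 called and 26 (without ko replicate 3) to 43 higher; the higher count was 28, 30 and 35 without wt replicates 1, 3 and 4. Higher genes numbered 32 with all 48 untreated libraries in 1 fit and 87 with limma voom and sample weights. DESeq2 called 190 genes for ko against het and 51 for het against wt, 440 in HSC, 291 in HPC and 235 in GMP, and 54, 7 and 59 effects that differed from HSC, HPC and GMP; without a filter on low counts 21 differed from HSC. The cause of these shifts was not tested. Kmt2c ranged from -1.93 to -1.58 over the 17 alternatives.

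With the replicate number as a block 260 genes were called (215 shared with the 251), 7 for het against wt and 43 in GMP. Same-numbered ko and wt libraries had correlations of 0.0996, 0.0625, 0.0245 and 0.208 of their deviations from the group means, so the numbers were not shown to pair libraries. Of 90 named genes 34 were called in all 17 alternatives, 51 in every fit that left out 1 library, and 0 reversed. The alternatives reuse the same libraries, so a kept direction is no separate support. The fit of all 48 untreated libraries ended 35 of the 90 calls, among them those of Alox5, Ccr1, Col5a1, Il18r1 and P2ry14. The Y-linked covariate ended 41, and leaving out ko replicates 1 and 4 ended 37. List counts without ko replicate 4, without ko replicates 1 and 4 and with the Y-linked covariate were chosen after seeing the data.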
